A study of Sus scrofa with 12 samples.

Results

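The T and NK cell genes of the sow endometrium were examined as a set of 9 genes, CD2, CD3D, CD3E, CD3G, CD5, CD247, LCK, PRF1 and KLRK1, taken from the 20674 genes of the deposited table by exact match of the gene name. All 9 were found, and all 9 were among the 15351 genes that passed the filter on low counts. RNA-seq had been performed on endometrium of Landrace × Yorkshire sows at the second or the third parity, collected after 114 days of feeding through gestation. The L − N group received the low-fiber (LF) diet with 3.73% crude fiber, and the L + N group the same diet with 0.05% N-carbamylglutamate (NCG), an activator of endogenous arginine synthesis. The H − N group received the high-fiber (HF) diet with 7.46% crude fiber, in which soybean bran and beet pulp replaced part of the corn, and the H + N group the HF diet with 0.05% NCG. Each group had 3 libraries, and L − N was the basal control. The labels do not say which sow gave which library, so the p-values below describe the spread between these libraries.

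The T cell receptor signals through the CD3 chains. CD3D and CD3G each pair with CD3E beside the receptor, and CD247, the zeta chain, carries most of the signaling motifs. LCK, a kinase bound to the CD4 and CD8 coreceptors, phosphorylates these motifs, while CD2 and CD5 are surface receptors that strengthen or restrain the response. PRF1 encodes perforin, the pore-forming protein of cytotoxic lymphocytes, and KLRK1 encodes NKG2D, an activating receptor of NK cells and CD8+ T cells that recognizes stress-induced ligands. CD2, CD247 and LCK are also used by NK cells. In the pregnant uterus, NK cells and T cells are known for their part in vessel remodeling and maternal tolerance.

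The libraries held between 14369781 and 19309724 counts. The tissue label was checked with marker genes, using CPM (counts scaled to a common library size with TMM factors). The 7 epithelial markers summed to 1002 to 2267 CPM and the 6 stromal markers to 24725 to 60697 CPM in the 12 libraries. L − N replicate 1 stood apart. Its 5 smooth muscle markers summed to 5052 CPM, against 789 to 1975 CPM in the other 11 libraries, and its red blood cell markers (754 CPM) and B and plasma cell markers (828 CPM) were also the highest of all. L − N replicates 2 and 3 had the highest macrophage sums, 3475 and 3590 CPM, against 713 to 1648 CPM elsewhere. Since the L − N libraries differ among themselves in this way, results of the members and of called genes against L − N are followed by what leaving out single libraries did. For listed genes that were not called, such fits are not given.

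Levels between genes were compared per length, as FPKM. CD2 had the highest mean, 22.2 ± 6.38 FPKM (SD, n = 12), followed by CD3E with 16.8 ± 5.44, CD3D with 12.01 ± 3.75 and CD3G with 10.5 ± 3.42 FPKM. KLRK1 (7.51 ± 3.88 FPKM), CD247 (5.64 ± 0.614 FPKM), LCK (5.37 ± 1.52 FPKM) and CD5 (4.57 ± 1.98 FPKM) came next, and PRF1 was the lowest with 1.501 ± 0.669 FPKM. The order held in all 12 libraries at 2 of its steps, CD3E above CD3D and CD5 above PRF1. At the other steps 8 to 11 of the 12 libraries followed it, and KLRK1 and CD247 were the least separated neighbors (8 of 12). Except for CD5 and PRF1, the means of neighbors lay within the sum of their SDs.

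The CD3 genes lie together. On the Sscrofa11.1 build, CD3E (chr9:45619730-45633972, plus strand), CD3D (chr9:45640475-45644153, minus strand) and CD3G (chr9:45645243-45656779, plus strand) follow one another, with 1089 bases between CD3D and CD3G. CD2 (chr4:103963802-103976971, minus strand) and CD247 (chr4:83494266-83586887, plus strand) are on the same chromosome but far apart. The remaining members are CD5 (chr2:10648973-10673479, minus strand), KLRK1 (chr5:61646691-61655386, plus strand), LCK (chr6:88719886-88745922, plus strand) and PRF1 (chr14:73515306-73520256, minus strand). No member overlaps another gene of the table, and the spans are whole genes, exons and introns together.

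Among the receptor chains, CD3E was measured at 9.93, 34.4 and 16.1 CPM in L − N replicates 1 to 3, at 22.0, 13.7 and 18.1 CPM in L + N, at 22.7, 16.02 and 24.5 CPM in H − N, and at 18.98, 20.2 and 32.8 CPM in H + N. Both the lowest and the second lowest values were from the LF diet, but so was the highest, and the L − N group alone spanned the whole range of the 12 libraries. CD3D was lowest in L − N replicates 1 and 3 and highest in H + N replicate 3, with 5.03, 13.9 and 6.04 CPM in L − N, 9.51, 6.93 and 8.11 CPM in L + N, 10.9, 6.94 and 8.28 CPM in H − N, and 8.96, 10.1 and 14.8 CPM in H + N. CD3G gave 5.67, 18.2 and 8.66 CPM in L − N, 18.2, 10.8 and 13.5 CPM in L + N, 15.3, 12.4 and 15.9 CPM in H − N, and 14.4, 15.9 and 24.0 CPM in H + N. The lowest CD3G values were also those of L − N replicates 1 and 3, and the group means increased from 10.8 ± 6.54 CPM in L − N to 14.1 ± 3.73 in L + N, 14.6 ± 1.88 in H − N and 18.1 ± 5.14 CPM in H + N (SD, n = 3). The ranges of all 4 groups still overlapped.

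CD247 was the exception among the receptor chains. It stayed between 25.5 and 33.8 CPM in all 12 libraries, a 1.33-fold range, while the other 8 members ranged over 2.85-fold or more. Its values were 26.6, 32.2 and 25.5 CPM in L − N, 32.6, 30.2 and 33.8 CPM in L + N, 30.9, 31.1 and 30.1 CPM in H − N, and 29.4, 32.8 and 31.1 CPM in H + N. Its SD within groups was 0.11 on the log2 scale, lower than that of all but 5.88% of the genes tested, whereas the SDs of the other 8 members were above those of 74.4% to 87.6% of genes. As a result, the CD247 to CD3E ratio of FPKM went from 0.213 in L − N replicate 2 to 0.607 in L − N replicate 1.

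LCK followed the CD3 genes, with 8.21, 23.4 and 9.60 CPM in L − N, 15.0, 10.8 and 16.2 CPM in L + N, 14.6, 13.2 and 12.1 CPM in H − N, and 13.3, 14.3 and 19.7 CPM in H + N. The L − N libraries again held both the lowest and the highest value. CD2 was at 10.1, 33.5 and 24.8 CPM in L − N, 32.5, 15.8 and 21.2 CPM in L + N, 23.3, 22.5 and 17.7 CPM in H − N, and 21.8, 23.9 and 25.6 CPM in H + N. Its group means were the closest of all members, between 21.2 and 23.8 CPM, a 1.12-fold difference, against a 3.31-fold range inside L − N. CD5, the restraining receptor, was lowest in mean in H − N (6.17, 8.11 and 5.52 CPM) and highest in H + N (7.51, 10.6 and 17.7 CPM), with 11.4, 7.98 and 8.502 CPM in L + N and 3.69, 16.6 and 7.52 CPM in L − N.

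The cytotoxic genes differed from each other. PRF1 was scarce, with 1.59, 8.15 and 2.62 CPM in L − N, 3.74, 1.86 and 2.94 CPM in L + N, 3.83, 3.95 and 3.17 CPM in H − N, and 3.63, 2.72 and 4.97 CPM in H + N. The value of L − N replicate 2 was the highest by far, and it made L − N the group with the highest PRF1 mean. KLRK1 was at 4.27, 8.03 and 7.59 CPM in L − N, 24.3, 6.23 and 10.99 CPM in L + N, 12.3, 6.17 and 12.1 CPM in H − N, and 13.0, 12.01 and 13.9 CPM in H + N. It was the only member whose highest library was L + N replicate 1, and the only one for which L − N replicate 2 was not among the 4 highest libraries. All 3 H + N libraries lay above all 3 L − N libraries. The KLRK1 to CD3E ratio of FPKM ran from 0.196 in L − N replicate 2 to 0.928 in L + N replicate 1.

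**Figure D1:**
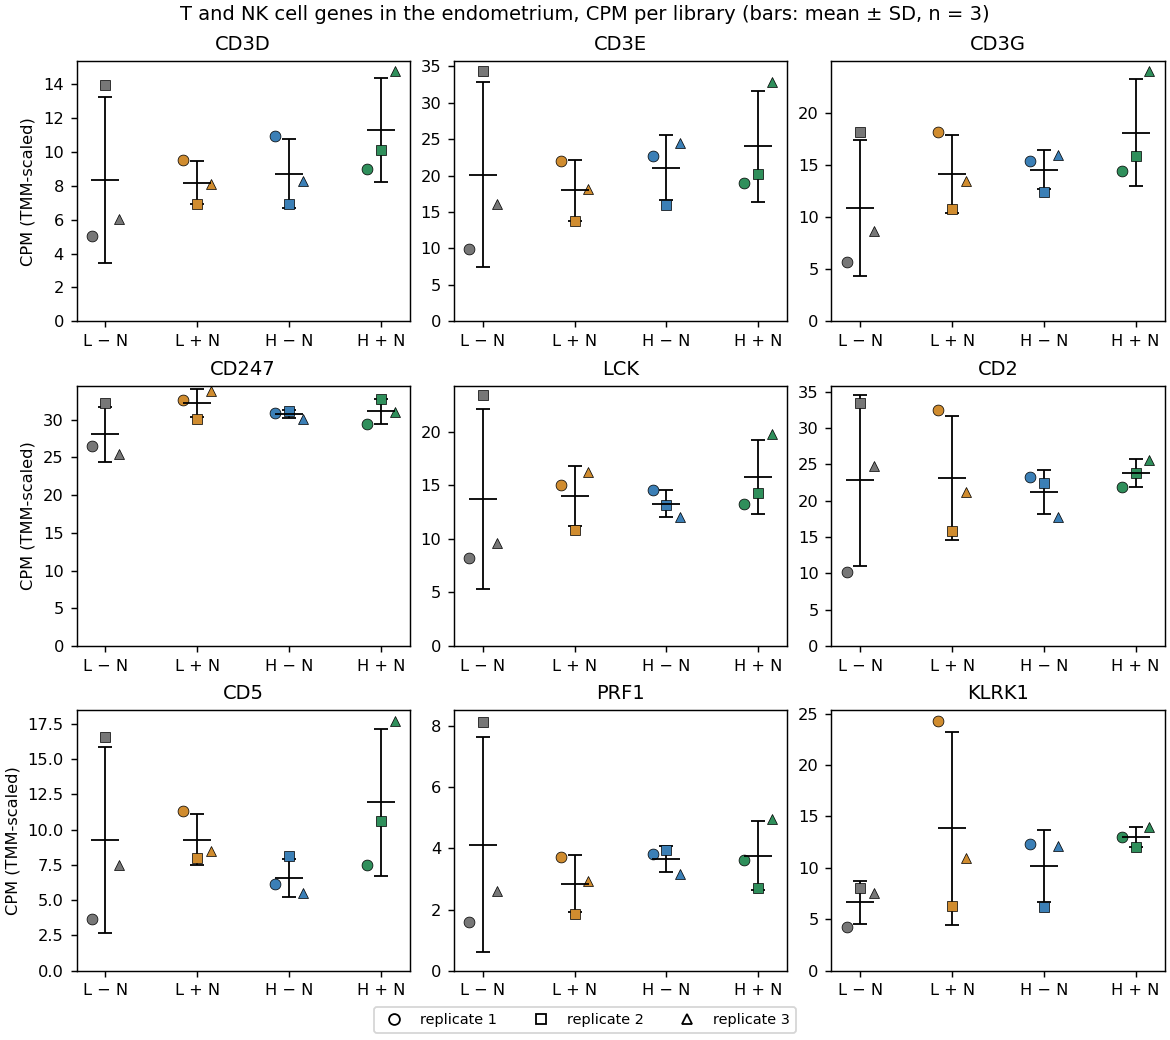
CPM of each T and NK cell gene (y axis) in the 4 diet groups (x axis), with 1 point per library, the marker shape giving the replicate number, and bars for the mean ± SD of 3 libraries. The L − N libraries span the widest range in 8 of the 9 genes, CD247 stays between 25.5 and 33.8 CPM, and the H + N points of KLRK1 lie above its L − N points.

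The first question was whether fiber, NCG or their combination changed these genes. No member passed the test (edgeR quasi-likelihood, Benjamini-Hochberg adjusted p under 0.05 and a log2 fold change past 1) in any comparison. In the test of any difference among the 4 groups, which called 6.96% of all genes tested, the members' adjusted p-values were between 0.319 (KLRK1) and 0.980 (CD2) in edgeR. The count was 0 of 9 for L + N against L − N (3.99% of all genes called), for H − N against L − N (2.91%), for H + N against L − N (3.58%), for NCG against no NCG over both diets (1.8%) and for HF against LF over both NCG levels (0.0261%). It was also 0 of 9 for H + N against H − N, H + N against L + N and the interaction of fiber and NCG, where edgeR called 0% of all genes. In those last 3 comparisons, 1331, 719 and 1967 genes had an unadjusted p under 0.05 in edgeR, and DESeq2 called 25, 2 and 184 genes. DESeq2 called no member in any comparison either. At an unadjusted p under 0.05, edgeR had 1 member in L + N against L − N (27.8% of all genes) and 1 in NCG against no NCG (23.6%), KLRK1 both times. It had none in the other comparisons, where 4.68% to 27.5% of all genes were under this value. DESeq2 had 1 member each in L + N against L − N, H + N against L − N and NCG against no NCG, and its shares over all genes are not given.

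KLRK1 gave the largest differences. Its log2 fold change was 1.07 (SE 0.45, 95% interval 0.08 to 2.05) in L + N against L − N, with an unadjusted p of 0.0367 and an adjusted p of 0.151 in edgeR. For H + N against L − N it was 0.97 (SE 0.45, 95% interval -0.02 to 1.96, edgeR adjusted p = 0.189), and this was the only member and comparison without overlap between the groups, a pattern that 15.2% of all genes tested had in this direction (0.404% to 18% in the other comparisons and directions). Over both diets, KLRK1 was 0.71 (SE 0.32) higher with NCG on the log2 scale, with an unadjusted p of 0.0464 and an adjusted p of 0.203 in edgeR. A single library weighed on these values. Without L + N replicate 1, the L + N against L − N difference was 0.39 (edgeR adjusted p = 0.573) and the NCG difference 0.37 (edgeR adjusted p = 0.441), while the H + N against L − N difference was 0.96 (edgeR adjusted p = 0.108). KLRK1 did not differ detectably between H + N and L + N (log2 fold change -0.10, 95% interval -1.06 to 0.87).

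CD3G came next in H + N against L − N, with a log2 fold change of 0.74 (SE 0.38, 95% interval -0.09 to 1.57, edgeR adjusted p = 0.231). For CD3D the same difference was 0.44 (95% interval -0.37 to 1.24) and for CD3E 0.25 (95% interval -0.61 to 1.12). CD247 was better determined than any other member. Its difference was 0.20 (95% interval -0.06 to 0.46) in L + N, 0.13 (95% interval -0.13 to 0.39) in H − N and 0.15 (95% interval -0.11 to 0.41) in H + N against L − N, so that a log2 change of 0.5 in either direction lay outside each interval. For CD2, LCK, CD5 and PRF1 the intervals against L − N reached past -0.5 and past 0.5 in all 3 comparisons. CD5 had the largest difference in H + N against H − N, 0.86 on the log2 scale (SE 0.47, 95% interval -0.18 to 1.89, edgeR adjusted p = 0.625). All 9 members were in the positive direction there, with a median of 0.25 against 0.01 for all genes tested, of which 51% were positive, and PRF1 (0.04) and CD247 (0.02) were close to 0. Without H + N replicate 3, the median in H + N against H − N was 0.06, 7 of 9 were positive and the largest difference was 0.46. The members also vary together over libraries, so their signs are not independent. In H + N against L − N 8 of 9 were positive (median 0.25, 51.7% of all genes), in L + N against L − N 6 of 9 (median 0.02, 47.7% of all genes) and in H − N against L − N 5 of 9 (median 0.07, 53.5% of all genes). Over both NCG levels, the HF against LF differences ran from -0.06 (CD5) to 0.39 (CD3G, 95% interval -0.19 to 0.97), and over both diets the NCG differences ran from -0.24 (PRF1) to that of KLRK1. The interaction estimates ranged from -0.72 (KLRK1) to 0.85 (CD5), with edgeR adjusted p-values of 0.604 or more.

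The comparisons with L − N turned on which L − N library was included. With L − N replicate 1 left out, the members' median log2 fold change in H + N against L − N was -0.01 and 4 of 9 were positive. With L − N replicate 2 left out, it was 0.89, all 9 were positive, 5 had an unadjusted p under 0.05 in edgeR, and CD3G was called (log2 fold change 1.34, SE 0.31, edgeR adjusted p = 0.0493). In that fit 342 genes were called, and 3.17% of all genes had an edgeR adjusted p under 0.05. The share of all genes at an unadjusted p under 0.05 is not given for it. With L − N replicate 3 left out, the members' median was 0.12. L + N against L − N moved in the same way, from a median of -0.29 without L − N replicate 1 to 0.56 without L − N replicate 2, and H − N against L − N from -0.26 to 0.66. No member was called in any of the other fits with 1 library left out.

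**Figure D2:**
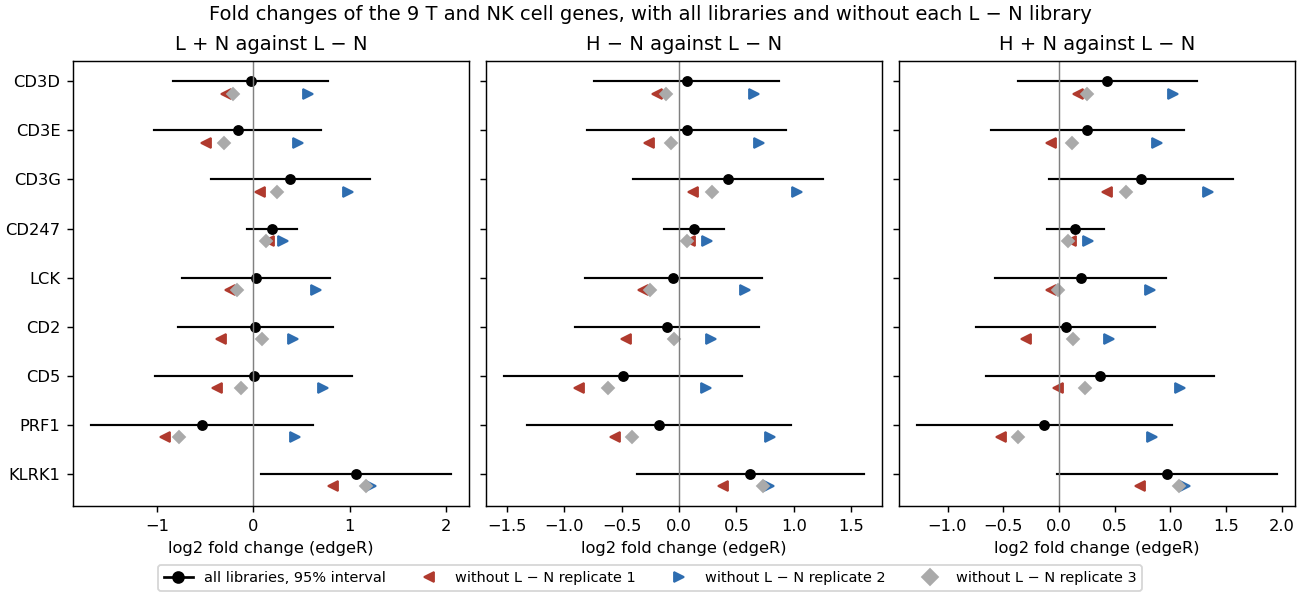
Log2 fold changes (x axis) of the 9 genes (y axis) against L − N, with black points and lines for the estimate and 95% interval from all 12 libraries and colored markers for the estimate with 1 L − N library left out. Only the KLRK1 interval in L + N excludes 0, and leaving out L − N replicate 1 or 2 moves the estimates to opposite sides of the black points in most genes.

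In its widest group, the ratio between libraries exceeded the ratio between group means for every member. Single libraries vary more than means of 3 libraries, and the share of all genes with this pattern was not computed. In other groups the ratio could be smaller, as for KLRK1 in H + N (1.16). The ratio of the highest to the lowest group mean was 1.12 to 2.09, and the widest ratio between libraries of the same group was 1.26 to 5.12, found in L − N for 8 members and in L + N for KLRK1. Group membership accounted for 3.55% (CD2) to 42.6% (CD247) of the variance of log2 CPM, against a median of 42.8% over all genes tested. The L − N group was not wider than the others in general. The median gene had a 1.38-fold range in L − N, 1.27-fold in L + N, 1.38-fold in H − N and 1.41-fold in H + N, while the members' median log2 range was 1.66 in L − N and 0.68, 0.39 and 0.71 in the other groups.

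The same libraries were high or low for most members. L − N replicate 1 had the lowest CPM of the 12 libraries for 8 of 9 members and the second lowest for CD247. L − N replicate 2 was the highest or second highest for 7 members and H + N replicate 3 also for 7. Summed over the 9 genes, CPM was 75.1, 188 and 108 in L − N, 169, 104 and 133 in L + N, 140, 120 and 129 in H − N, and 131, 142 and 185 in H + N. The group means of this sum were 124 ± 58.2, 136 ± 32.5, 130 ± 9.84 and 153 ± 28.2 CPM (SD, n = 3) in the same order. In such bulk tissue, fewer T and NK cells and less RNA per cell cannot be told apart.

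**Figure D3:**
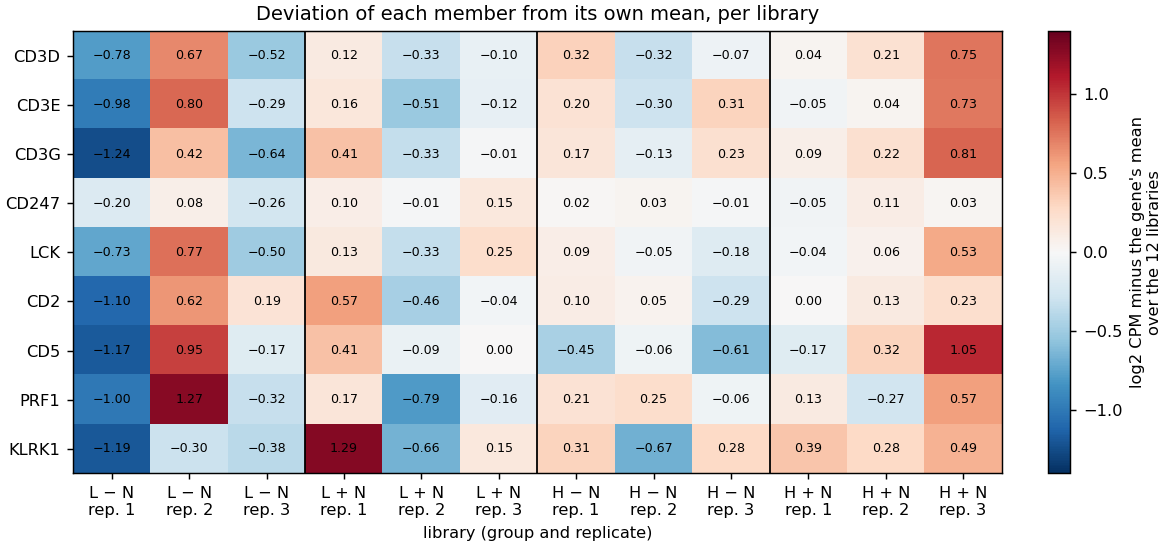
Deviation of log2 CPM of each gene (rows) from its mean over the 12 libraries (columns, by group and replicate), blue for low and red for high. Most rows are blue in L − N replicate 1 and red in L − N replicate 2 and H + N replicate 3, CD247 stays pale, and KLRK1 is highest in L + N replicate 1.

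Because the members varied by library, their covariation was tested over the 12 libraries with a permutation test (100000 resamples, two-sided, Benjamini-Hochberg over 36 pairs). Pearson's r of log2 CPM was between 0.409 and 0.935, with a median of 0.756, and 28 of 36 pairs passed an adjusted p of 0.05, or 22 of 36 by Spearman's rho. All 15 pairs among CD2, CD3D, CD3E, CD3G, CD5 and LCK passed by r (0.710 to 0.935), and 12 of these by rho. CD3D and CD3E had the highest r of all pairs (r = 0.935, rho = 0.895, both permutation p-values at or below 0.00014, r = 0.873 without the 2 libraries farthest from the median). In each pair, this median was that of the gene first by name. Without the 2 farthest libraries of each pair, r among the 15 pairs was 0.387 to 0.896 (median 0.661), and the median of all 36 pairs was 0.546. CD2 was lowest there, with r = 0.388, 0.396 and 0.387 with CD3D, CD3E and CD3G. CD3E and CD3G had r = 0.912 and, at 0.937, a higher rho than CD3D and CD3E (permutation p = 4e-05 and 1e-05, the latter the smallest these resamples can give, r = 0.896 without the 2 farthest libraries). By r, CD247 passed with LCK, CD3G and CD3D, 3 of the 8 other members. By rho it passed with LCK (0.741, permutation p = 0.0075, adjusted p = 0.0209) and CD5 (0.713, permutation p = 0.0111, adjusted p = 0.0251). Without the 2 libraries farthest from the median of CD247, its r with CD3D and CD3G fell to 0.18 in both, while r with LCK was 0.48. Leaving them out also narrows the small range of CD247, which by itself lowers r. Pairs without CD247 had r between 0.046 (CD5 and KLRK1) and 0.896 when their 2 farthest libraries were left out. KLRK1 passed with 4 of 8, most closely with CD3G (r = 0.769, rho = 0.748), and not with PRF1 (r = 0.409, rho = 0.462, permutation p = 0.185 and 0.136). PRF1 passed with 6 of 8. Taken as deviations from the group means, the median r of all pairs was 0.828, which describes covariation inside the diets. All points share the 12 libraries and their scaling, and no other batch is given in the labels.

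The genes most like the members were looked for among the 15342 other genes tested, by Pearson's r over the 12 libraries with the mean of the members' standardized log2 CPM. The median gene had r = 0.043, and 9 genes were above 0.9. In order, the first 10 were SEPT1, a septin whose name is held as a date in the table (r = 0.9751), CD6 (0.952), a surface receptor related to CD5, LOC102158035 (0.941), listed by RefSeq under the synonym TCR-a, LOC100739325 (0.927), ACAP1 (0.909), SLAMF6 (0.907), FCMR (0.907), TXK (0.905), a kinase of T cells, CLNK (0.904) and CD8A (0.895), the alpha chain of the CD8 coreceptor. LOC102158035 was at 26.6 FPKM on average, against 22.2 FPKM for CD2. Of the 10, CD6, SLAMF6, TXK and CD8A were on the lists of T cell genes used below.

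The other genes of the pathway were grouped by their role, and the likeness to the members ranged widely inside the groups. Of 14 T cell coreceptor and surface genes tested, edgeR called 0 in any comparison, and their median r with the members was 0.743 (0.449 to 0.952). CD4 ran from 11.08 to 38.2 CPM (r = 0.521), and its log2 fold change in H − N against L − N was -1.05 (edgeR unadjusted p = 0.0187, adjusted p = 0.125). CD8A ran from 9.30 to 37.3 CPM, and CD8B from 0.891 to 7.46 CPM (r = 0.616). Of the 19 T cell receptor signaling genes tested, the median r was 0.322 (-0.359 to 0.905). LAT, an adaptor of the receptor signal (r = 0.698), was not called in any comparison. ZAP70 was not analysed here.

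RASGRP1 and MALT1 were the signaling genes called in a comparison of groups. RASGRP1, an exchange factor that activates RAS after receptor engagement, rose in L + N, H − N and H + N against L − N by log2 fold changes of 1.25, 1.34 and 1.14 (edgeR adjusted p = 0.00870, 0.0179 and 0.0182). The call held in 11, 10 and 9 of the 12 fits with 1 library left out, with log2 fold changes of 1.01 to 1.604. It was lost without L − N replicate 3 in all 3 comparisons (edgeR adjusted p = 0.0508, 0.0868 and 0.0861), without H − N replicate 1 in H − N, and without H + N replicate 1 or 3 in H + N. The r of RASGRP1 with the members was 0.476. MALT1, a protease that links antigen receptors to NF-kB, rose in L + N against L − N by 1.08 on the log2 scale (edgeR adjusted p = 0.00993, and 0.0518 without L − N replicate 3), with r = 0.172. PTPN6, a phosphatase of many leukocytes, had log2 fold changes of -0.85 in H − N and -0.88 in H + N against L − N (edgeR adjusted p = 0.0436 and 0.0327), which do not reach the fold threshold.

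The cytotoxic effector genes had a median r of 0.752 with the members over 14 genes tested, with a range of -0.540 (GZMH, a granzyme) to 0.886. Their log2 sum, to which SRGN added 94.5 to 287 CPM, had r = 0.258 and rho = 0.168 with the members. GZMB, a granzyme (r = 0.845, 0.064 to 4.77 CPM), GZMK (r = 0.804), the 2 entries that carry the name GZMA (r = 0.767 and 0.886), and IFNG, the interferon of activated T and NK cells (r = 0.863, 2 to 18 counts), varied with them, while NKG7, a granule protein, did so less closely (r = 0.518). Reads may be shared between the 2 entries named GZMA. None of these was called in any comparison. The 1 called gene of this list was SRGN, a granule proteoglycan that other leukocytes also make, which fell by 1.29 on the log2 scale in H + N against L − N (edgeR adjusted p = 0.0288) and had r = -0.105 with the members. Its call was lost without L − N replicate 2 or 3 or H + N replicate 1 or 3, with adjusted p-values of up to 0.110 in edgeR.

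The NK receptors and adaptors were less alike, with a median r of 0.393 over 13 genes tested. KLRD1, the CD94 receptor chain, was at r = 0.727, KLRB1 at 0.327 and NCR1, the NKp46 receptor, at 0.146 with 7 to 51 counts per library. HCST, the DAP10 adaptor that pairs with NKG2D, was measured at 0.757 to 3.14 CPM with r = 0.393, and it was not called in any comparison, its log2 fold changes against L − N being -0.58, -0.58 and -0.70 in L + N, H − N and H + N. TYROBP, the DAP12 adaptor, which macrophages also express, had log2 fold changes of -0.78, -1.09 and -0.95 (edgeR adjusted p = 0.119, 0.0613 and 0.0709). FCGR3A, an Fc receptor of NK cells and macrophages, fell by 1.43 on the log2 scale in H − N against L − N (edgeR adjusted p = 0.0474), the only called gene of this list. This call held in 1 of the 12 fits with a library left out, the one without L − N replicate 1, and the log2 fold change was between -1.79 and -1.14 in the 12 fits.

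Among the 5 genes tested that were listed as ligands of member receptors, 3 ran opposite to the members. CD59, listed as a possible ligand of CD2, had r = -0.718, and CD58, which binds CD2, had r = -0.510. ULBP1, a ligand of NKG2D, had r = -0.580, while the leukocyte genes CD48 and CD72 were at 0.454 and 0.612. CD59 had a log2 fold change of -0.74 in L + N against L − N (edgeR adjusted p = 0.0210) and of -0.48 with NCG over both diets (edgeR adjusted p = 0.0332), both short of the fold threshold. All 5 ligand genes tested were below 0 in the 3 comparisons with L − N. Their summed level was highest, 572 CPM, in L − N replicate 1, the library lowest for the members and highest for smooth muscle. Of the 5 checkpoint genes tested, HAVCR2 fell by 1.55 on the log2 scale in H + N against L − N (edgeR adjusted p = 0.0296) with r = -0.292, and TIGIT varied with the members (r = 0.770). The HAVCR2 call was lost without L − N replicate 2 or 3 or any of the 3 H + N libraries (edgeR adjusted p of up to 0.110).

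**Figure D4:**
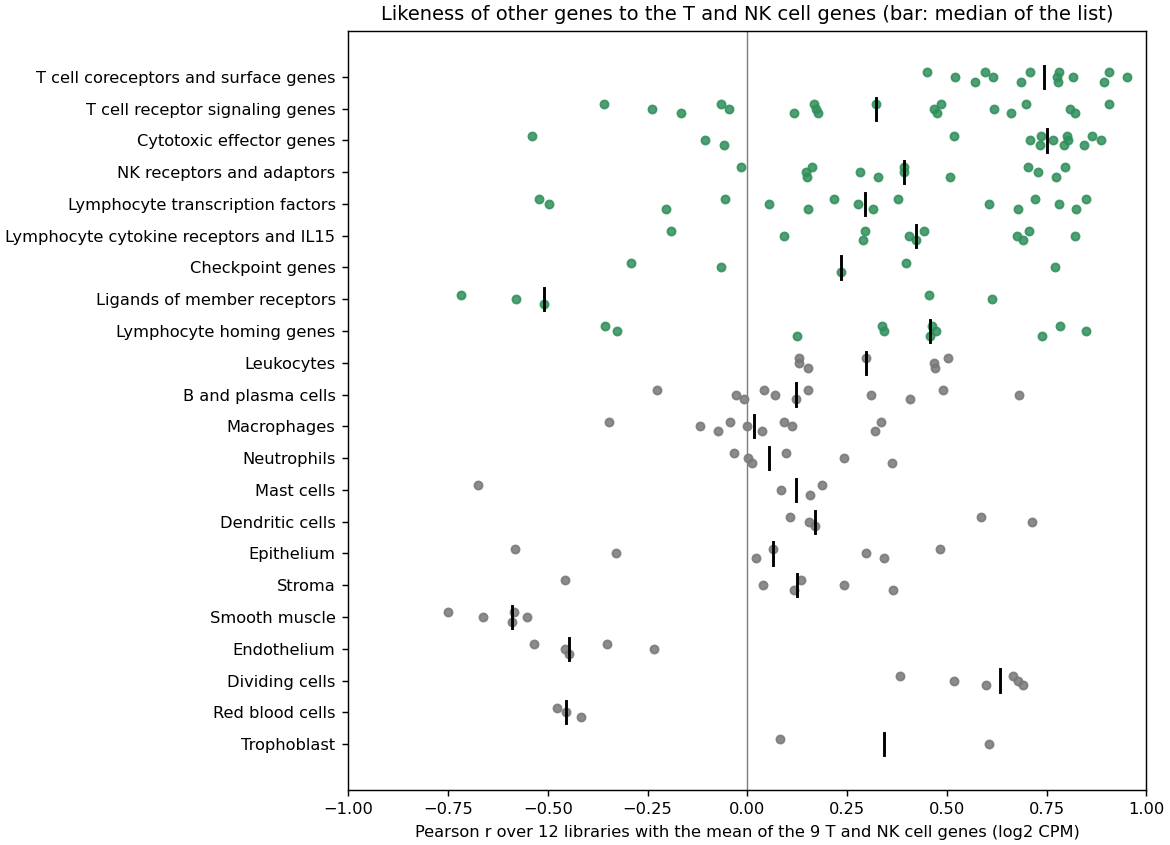
Pearson's r (x axis) over the 12 libraries between each listed gene and the mean of the 9 members, 1 point per gene, by gene list (y axis). Green marks the lymphocyte lists and the ligands of member receptors, gray the other marker lists, and a bar the median of each list. The T cell surface genes (median 0.743), cytotoxic genes (0.752) and markers of dividing cells (0.632) lie to the right. Macrophage markers (0.017) lie around 0 and smooth muscle markers (-0.589) to the left.

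Markers of other cell types were called in some comparisons with L − N, where 2.91% to 3.99% of all genes were called. At such shares, 0 of 9 called does not set the T and NK cell genes apart from other genes. Of 10 macrophage markers, edgeR called 2 (L + N), 7 (H − N) and 4 (H + N) lower against L − N, where 0.671%, 2.01% and 1.28% of all genes were called lower. Among them was CD163, a scavenger receptor, whose log2 fold changes were -1.57, -2.02 and -1.71 (edgeR adjusted p = 0.0364, 0.0279 and 0.0332). With 1 library left out, the counts of called macrophage markers were 0 to 7, 0 to 9 and 0 to 8. They were 0 in all 3 comparisons without L − N replicate 3, 0 in H − N without H − N replicate 1, and 0 in H + N without H + N replicate 1 or 3. All 10 were below 0 in each comparison with all libraries.

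Of 6 markers of dividing cells, edgeR called 5 (L + N), 1 (H − N) and 5 (H + N) higher, against 3.32%, 0.892% and 2.29% of all genes. TOP2A, a topoisomerase of dividing cells, led them with log2 fold changes of 2.70, 1.62 and 2.59 (edgeR adjusted p = 0.00818, 0.0372 and 0.0136). With 1 library left out, the counts were 1 to 6, 0 to 5 and 0 to 5. Without L − N replicate 3 they were 1, 0 and 0, without H − N replicate 1 the count in H − N was 0, and without H + N replicate 1 that in H + N was 0. TOP2A in L + N was the 1 call of a listed gene against L − N that held in all 12 such fits.

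Of 7 markers of leukocytes in general, 2 (L + N), 0 (H − N) and 0 (H + N) were above 0, with median log2 fold changes of -0.43, -0.74 and -0.49. LAPTM5, a lysosomal protein of leukocytes, was the 1 called, lower in H − N by a log2 fold change of -1.14 (edgeR adjusted p = 0.0353), and its call held in 5 of the 12 fits with a library left out. PTPRC, the pan-leukocyte gene CD45, had log2 fold changes of 0.10, -0.70 and -0.16 in L + N, H − N and H + N and was not called. All 5 smooth muscle markers were below 0 in the 3 comparisons with L − N, and 2, ACTA2 and TAGLN, were called lower in L + N, neither of them without L − N replicate 1 or any 1 of the L + N libraries, and ACTA2 also not without L − N replicate 3. The log2 sum of the smooth muscle list had r = -0.638 and rho = -0.357 with the members. That of the macrophage list had r = 0.040 and rho = 0.056, and that of the B and plasma cell list r = -0.004 and rho = 0.028. Other lists ran with the members. The log2 sum had r = 0.842 and rho = 0.615 for dendritic cells, though the median r of their single genes was 0.169. It had r = 0.584 and rho = 0.371 for dividing cells (median r of single genes 0.632), and r = 0.559 and rho = 0.350 for trophoblast. The part of tissue composition in the members' variation was not tested.

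**Figure D5:**
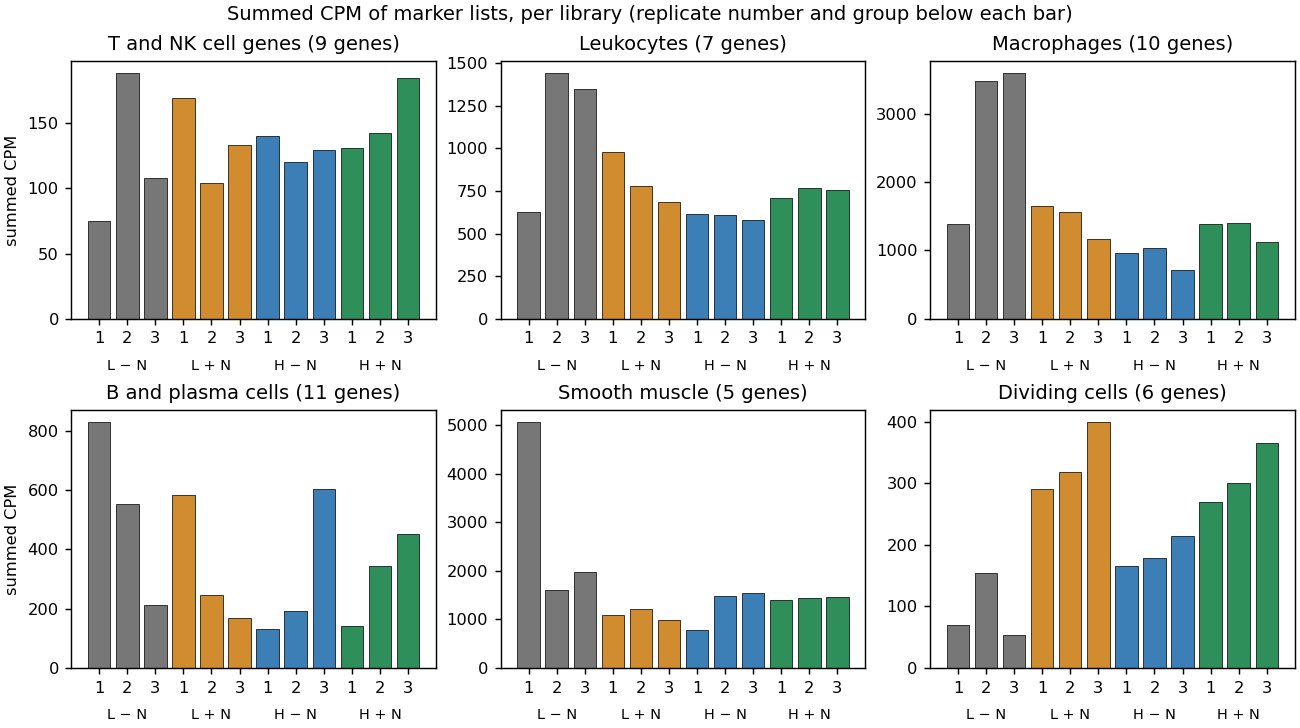
Summed CPM (y axis) of the 9 members and of 5 marker lists in each library (x axis, replicate number and group, bar color by group). The member sum is lowest in L − N replicate 1 (75.1 CPM), where the smooth muscle sum is highest (5052 CPM), and the macrophage sums of L − N replicates 2 and 3 (3475 and 3590 CPM) stand above the rest.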

How the data were processed

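RNA-seq of 12 endometrium libraries was analysed. The submitters' processing notes name fastp 0.22.0 (a read trimmer), HISAT2 2.1.0 (an aligner), HTSeq 0.9.1 (a read counter) and the Sscrofa11.1 build, and the strand setting is not given in the sources used here. The deposited table holds raw counts and the FPKM values the authors made from them. Groups were taken from the sample labels. Counts were tested with edgeR 4.0.16 (filterByExpr, TMM, quasi-likelihood, 1 mean per group over all 12 libraries), with Benjamini-Hochberg adjustment over 15351 genes, and called at an adjusted p under 0.05 and a log2 fold change past 1. The code was checked on simulated data. Log2 CPM used a prior count of 2. Intervals cover the spread between libraries at the depth of 14369781 to 19309724 counts. Replicates of a group differed by more than sampling noise (chi-square per gene 23.3 to 99.8). Alternatives were DESeq2 1.42.0, RLE scaling, no filter, 2 groups alone, a replicate block, a prior count of 0.5 and leaving out each library. The members and gene lists were chosen with earlier results of these data known. Named genes were the members, a set of listed T and NK cell genes and the 10 genes most like the members. Some list genes called in a comparison were also named, at most 4 per list and comparison. Other called list genes were not described. Among them was CD14, with smaller edgeR adjusted p-values than CD163 (0.0115, 0.0192 and 0.0218 in L + N, H − N and H + N against L − N). AHSP (red blood cells, lower in L + N) and ELF5 (trophoblast, higher in H + N) were others. A gene of the listed set is not reported here. Of the ligand and checkpoint lists, CD59, CD58, CD48, CD72, ULBP1 and TIGIT, of the signaling list PTPN6, and of the cytotoxic list GZMH, were named after their values were seen.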

Additional observations from a re-analysis of the deposited data

How the results depend on the processing

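No T and NK cell gene was called under RLE scaling, no filter, DESeq2, 2 groups alone or the replicate block, and leaving out 1 library gave 0 to 1 called members in H + N against L − N, the 1 being CD3G without L − N replicate 2. Signs were less firm. Of the 72 log2 fold changes of members, 37 changed sign when a library was left out, the largest of them 0.57 with all libraries, and the cause was not tested. RLE scaling and DESeq2 turned CD5 in L + N against L − N to -0.0048 and -0.0050. The replicate block turned CD3D in L + N against L − N to 0.0068, LCK in H − N against L − N to 0.0056 and KLRK1 in H + N against L + N to 0.013. The prior count of 0.5 left 28 of 36 correlations past the threshold, as before.

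Lowest and highest log2 fold changes over the leave-one-out fits follow for the values that changed sign. In L + N against L − N, these ranges were CD2 -0.33 to 0.41, CD3D -0.29 to 0.56, CD3E -0.49 to 0.47, CD5 -0.37 to 0.73, LCK -0.24 to 0.65 and PRF1 -0.92 to 0.44. In H − N against L − N, these ranges were CD2 -0.46 to 0.28, CD3D -0.19 to 0.66, CD3E -0.26 to 0.70, CD5 -0.87 to 0.23, LCK -0.31 to 0.58 and PRF1 -0.56 to 0.79. In H + N against L − N, these ranges were CD2 -0.29 to 0.45, CD3E -0.071 to 0.89, CD5 -0.031 to 1.09, LCK -0.067 to 0.82 and PRF1 -0.52 to 0.84. In H + N against H − N, these ranges were CD3E -0.11 to 0.32, CD247 -0.025 to 0.046 and PRF1 -0.21 to 0.23. In H + N against L + N, these ranges were CD2 -0.19 to 0.34, CD5 -0.035 to 0.58, LCK -0.025 to 0.26 and KLRK1 -0.46 to 0.57. In HF against LF, these ranges were CD2 -0.21 to 0.16, CD5 -0.26 to 0.30, LCK -0.072 to 0.37 and PRF1 -0.080 to 0.60. In NCG against no NCG, these ranges were CD2 -0.083 to 0.29, CD3E -0.15 to 0.33 and PRF1 -0.44 to 0.24. For the interaction, these ranges were CD2 -0.24 to 0.50, CD3D -0.19 to 0.66, CD3E -0.28 to 0.67, CD3G -0.67 to 0.24, LCK -0.41 to 0.48 and PRF1 -0.39 to 0.96.

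Counts over all genes depended on the method, which limits what a member's share can be read against. DESeq2 called 3365 genes for any difference among the groups, 913 in H − N against L − N, 988 in H + N against L − N, 25 in H + N against H − N, 2 in H + N against L + N, 290 in HF against LF and 184 for the interaction. With 2 groups alone, edgeR called 3 genes in H − N and 80 in H + N against L − N, and 1, 0 and 0 macrophage markers and 1, 0 and 0 markers of dividing cells in L + N, H − N and H + N against L − N. Of 18 same-numbered pairs of libraries, 3 had r above 0.1 (range -0.32 to 0.28). Differently numbered pairs were not compared, so whether the replicate numbers pair the libraries was not settled. With the replicate block, 254 genes were called in H − N against L − N, 1 in HF against LF and 477 for any difference. Leaving out 1 library gave 143 to 911 (L + N against L − N), 0 to 1120 (H − N against L − N), 1 to 948 (H + N against L − N), 0 to 331 (HF against LF), 157 to 340 (NCG against no NCG), 0 to 346 (interaction) and 4 to 1732 (any difference among the 4 groups) called genes. With 3 libraries per group, the standard errors of the members' log2 fold changes against L − N reached 0.52 (PRF1), against 0.12 for CD247, which sets the size of difference that could be detected.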

Other observations

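Lymphocyte regulators were only partly alike to the 9 T and NK cell genes. Among 16 transcription factors tested, the median r with the members over the 12 libraries was 0.295, and edgeR called 0 in L + N, H − N or H + N against L − N. FOXP3, the factor of regulatory T cells, was at 1.07 to 3.01 CPM with r = -0.057, and its log2 fold changes against L − N were 0.76, 0.57 and 0.48 (edgeR unadjusted p = 0.0775, 0.174 and 0.246). Among 11 cytokine receptor genes and IL15 together, the median r was 0.424. IL2RB, the receptor chain shared by IL-2 and IL-15, had r = 0.820 and 18.5 to 49.0 CPM, while IL15 itself, a cytokine that maintains NK cells, had r = 0.093 and 6.65 to 12.4 CPM. Neither was called in any comparison.

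Among 11 lymphocyte homing genes the median r was 0.457, and edgeR called 0 past both thresholds in a comparison of groups. S1PR1, the receptor for lymphocyte exit that endothelium also expresses, had r = -0.358 and log2 fold changes of -0.90, -0.60 and -0.62 in L + N, H − N and H + N against L − N (edgeR adjusted p = 0.00870, 0.0448 and 0.0332), short of the fold threshold. The 5 endothelium markers summed to 1559 and 1317 CPM in L − N replicates 1 and 3, against 753 to 1175 CPM elsewhere. PECAM1, of these markers, was called lower in L + N by a log2 fold change of -1.09 (edgeR adjusted p = 0.0110). Its call was lost without L − N replicate 1 or L + N replicate 2. Whether S1PR1 followed the endothelium was not tested.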
